A study of Mus musculus with 37 samples.

Results

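Small nucleolar RNAs and small Cajal body RNAs were examined in the brains of mice that carry a deletion or a duplication of the chromosome 7 segment corresponding to human 16p11.2. The genes were selected on their names: every probe set with a single gene symbol that starts with Snord, Snora or Scarna was taken, and where a gene had several probe sets the one with the highest mean over all arrays was kept. This gave 54 of the 19938 genes on the array, of which 31 are Snord, 20 Snora and 3 Scarna genes. They came from 60 probe sets, and 6 genes had 2 of them. For 3 of those genes (Scarna17, Snora30 and Snord118) both probe sets held identical values on all arrays. The means that chose the probe sets ran from 4.17 log2 units (Snord58b) to 12.5 (Snora52, with Snord104 at 12.46 and Snord57 at 12.36), and the dimmest after Snord58b were Snord38a at 4.98 and Snora2b at 5.46. Signals of different probe sets depend on their probes and are not compared as amounts of RNA.

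The 37 arrays cover 4 regions (cortex, cerebellum, brain stem and olfactory bulb) from 8 male F1 hybrids of C57BL/6N and 129Sv. The 2 df/+ mice have 1 copy of the segment, the 3 dp/+ mice have 3 copies and the 3 +/+ mice have 2 copies, and the labels give no age. In total 31 region samples were profiled, 6 of them on 2 arrays, and no cortex array of dp/+ mouse 3 was analysed here. The sample titles number biological replicates within each region and copy number, and equal numbers within a genotype were read as the same mouse. With 2 or 3 mice a genotype every value has limited precision. The dissections were checked on regional markers in +/+ mice only: 5 of 5 bulb markers, 3 of 4 cortex markers, 5 of 5 cerebellum markers and 4 of 4 brain stem markers peaked where they should. Summed over 4 choroid plexus markers, the signal varied within groups, from 1045.1 to 9287.2 in +/+ brain stems and from 2811.0 to 14611.7 in df/+ cerebella. In the brain stem 2 of the 4 were lower in every rearranged sample than in +/+ samples, as were 1.53% of all genes. The part of this tissue in the results was not tested.

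Box C/D RNAs (Snord genes) pair with ribosomal RNA and guide fibrillarin to methylate its riboses, while box H/ACA RNAs (Snora genes) guide dyskerin to turn uridine into pseudouridine. Small Cajal body RNAs (Scarna genes) do the same for the RNAs of the spliceosome. Most of these RNAs in mammals are cut out of introns of host genes, many of which code for ribosomal proteins, after splicing, debranching and exonuclease trimming. Arrays labelled from total RNA read the sequence and not the ends of an RNA, so signal from a mature small RNA and from the intron that holds it was not separated. In tissue samples, fewer cells of a type and less RNA per cell cannot be told apart.

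Because most members lie in introns, the starts of the host genes are the nearest control sequence that the reference holds, and they are shown for the hosts of members that changed across the brain. Each runs from 30 bases before to 20 bases after the annotated start, 5′ to 3′, in RefSeq's GRCm38.p6. Capitals mark the first run of at least 5 C or T letters that begins with C on the sense strand between 10 bases before and 20 bases after the start, a feature of the terminal oligopyrimidine messengers of the translation machinery.
Tpt1, host of Snora31, chr14:75845226-75845275, plus strand: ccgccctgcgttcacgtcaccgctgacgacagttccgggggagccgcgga
Ipo7, host of Snora23, chr7:110018285-110018334, plus strand: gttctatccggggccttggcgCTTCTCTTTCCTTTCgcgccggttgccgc
Rps12, host of Snora33, chr10:23787190-23787239, minus strand: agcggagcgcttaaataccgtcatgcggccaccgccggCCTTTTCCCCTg
Snhg3, host of Snora73a and Snora73b, chr4:132353667-132353716, minus strand: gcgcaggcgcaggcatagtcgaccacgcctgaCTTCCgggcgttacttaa
Gm36220, host of Snord104, chr11:106500885-106500934, plus strand: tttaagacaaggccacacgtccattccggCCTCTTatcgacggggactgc
Rps3a1, host of Snord73b, chr3:86142649-86142698, minus strand: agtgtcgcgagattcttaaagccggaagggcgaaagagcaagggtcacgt
Nop56, host of Snord57, chr2:130274382-130274431, plus strand: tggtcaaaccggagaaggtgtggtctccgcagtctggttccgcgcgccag
Of the 33 host genes of members that have a start sequence in the table, 18 (54.5%) hold such a run, against 39.6% of all 27025 genes with one. The run is a description of these letters and was not tied to any change below. It was sought only near the annotated start, so an unmarked sequence does not show that the messenger lacks such a run.

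Across the brain, small nucleolar RNA genes were mostly lower in both kinds of rearranged mice than in +/+ mice. Each mouse was given 1 value per gene, the mean over its regions of the log2 signal minus the +/+ mean of that region. The value of dp/+ mouse 3 lacks the cortex, so the bulb weighs more in it than in those of the other mice. The comparison asks whether these RNAs differ with copies of the segment, and no member lies inside it by gene order. Of the 9 members on chromosome 7, Snora30, in an intron of Srcap, is nearest, with 15 protein-coding genes between it and the segment. In df/+ mice 48 of 54 members lay below 0, with a median of −0.21 log2 (86.4% of +/+), where the median of all genes was −0.01. In dp/+ mice 48 of 54 also lay below 0, with a median of −0.23 (85.4%), against −0.01 for all genes. These contrasts share the same 3 +/+ mice, so their likeness is not independent.

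**Figure D1:**
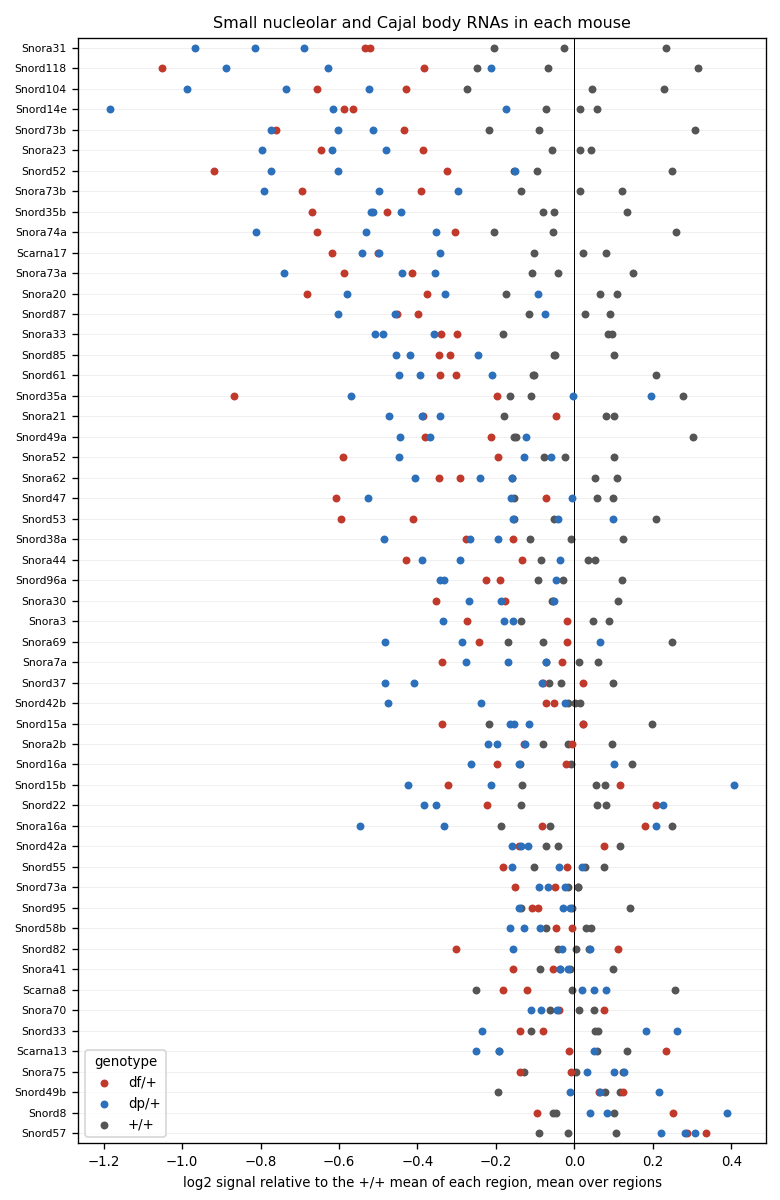
Each row is 1 gene and each point 1 mouse, at its log2 signal relative to the +/+ mean of each region averaged over regions, with df/+ in red, dp/+ in blue and +/+ in grey; rows are ordered by the difference of both rearrangements from +/+. In the upper rows most red and blue points lie left of all grey ones, and for Snord57, in the bottom row, they lie right of them.

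The mice were also set side by side without a model. The median over the 54 members was −0.20 and −0.30 in the df/+ mice and −0.33, −0.16 and −0.21 in the dp/+ mice, against −0.04, 0.09 and −0.06 in the +/+ mice. All 5 rearranged mice thus had a lower median than any +/+ mouse. All 5 lay below all 3 +/+ mice for 16 members (29.6%), where 4.48% of all genes did. Both df/+ mice did so for 28 members (background 13.8%) and all 3 dp/+ mice for 23 (background 10.9%). In the other direction, all 5 lay above all 3 +/+ mice for 1 member, Snord57, and for 3.21% of all genes.

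In limma with p-values adjusted over all genes, 2 members fell in df/+ mice, where 0.115% of all genes changed. These were Snord35b, a box C/D RNA, and Scarna17, a Cajal body RNA. In dp/+ mice 11 members changed, 10 lower and 1 higher, against a background of 1.86% of all genes, with 0.381% lower and 1.48% higher. With both rearrangements together, 4 members fell and 0 rose, against a background of 0.0301% of all genes, and the other 2 genes called in that contrast were Gdpd3, which lies in the segment, and Mir680-1. At an unadjusted p below 0.05, 27 members passed in df/+ mice (6.75% of all genes), 30 in dp/+ mice (23.7%) and 31 in the combined contrast (15.7%).

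Snord35b measured −0.48 and −0.67 log2 in the df/+ mice and −0.52, −0.44 and −0.51 in the dp/+ mice, against −0.08, 0.13 and −0.05 in the +/+ mice. All 5 rearranged mice lay below the +/+ mice. The difference was −0.57 ± 0.08 in df/+ mice (SE, n = 2; limma, adjusted p = 0.0116) and −0.49 ± 0.07 in dp/+ mice (SE, n = 3; limma, adjusted p = 0.0125). Scarna17 measured −0.50 and −0.62 in the df/+ mice and −0.50, −0.34 and −0.54 in the dp/+ mice, against 0.02, 0.08 and −0.10 in the +/+ mice. Again the groups did not overlap. Its level was 67.9% of +/+ in df/+ mice (limma, adjusted p = 0.0124) and 72.7% in dp/+ mice (limma, adjusted p = 0.0141).

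Snora31, a box H/ACA RNA in an intron of Tpt1, had the largest combined difference among the members. It measured −0.53 and −0.52 log2 in the df/+ mice and −0.97, −0.81 and −0.69 in the dp/+ mice, against −0.21, 0.23 and −0.03 in the +/+ mice. It fell by 0.82 ± 0.10 in dp/+ mice (SE, n = 3; limma, adjusted p = 0.00796), while −0.53 ± 0.11 in df/+ mice did not pass (n = 2; limma, adjusted p = 0.223). Snora23, a box H/ACA RNA in the importin gene Ipo7, measured −0.39 and −0.65 in the df/+ mice and −0.62, −0.48 and −0.80 in the dp/+ mice, against −0.06, 0.01 and 0.04 in the +/+ mice. For both genes every rearranged mouse lay below every +/+ mouse. With the rearrangements together, the difference was −0.68 ± 0.09 for Snora31 and −0.57 ± 0.08 for Snora23 (limma, adjusted p = 0.0319 each).

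The other members that fell in dp/+ mice were Snord104 at 59.5% of +/+, Snord73b at 64.6%, Snora73b at 69.3%, Snora73a at 70.1%, Snora33 at 73.2% and Snord85 at 77.2% (limma, adjusted p between 0.0187 and 0.0448). Snora73a and Snora73b are the paired copies of the RNA that takes part in cutting out the small subunit's ribosomal RNA, and whether their probes tell them apart was not tested. Snord57, a box C/D RNA in an intron of Nop56, went the other way. It measured 0.29 and 0.34 in the df/+ mice and 0.28, 0.31 and 0.22 in the dp/+ mice, against 0.11, −0.09 and −0.02 in the +/+ mice. It rose by 0.27 ± 0.06 in dp/+ mice (SE, n = 3; limma, adjusted p = 0.0448) and its 0.31 ± 0.07 in df/+ mice did not pass (n = 2; limma, adjusted p = 0.225).

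These calls depended on few mice, and the lower ones did not pass without the olfactory bulb. The 2 calls in df/+ mice came to 1 without +/+ mouse 1 and to 0 without +/+ mouse 2 or df/+ mouse 2, the 11 in dp/+ mice came to 1 when +/+ mouse 2 was left out, 5 for +/+ mouse 3 or dp/+ mouse 1 and 6 for dp/+ mouse 2, and the 4 combined calls to 0 without +/+ mouse 1, +/+ mouse 2 or df/+ mouse 2. With a trended robust prior for the variance, limma called 0 members in each of these contrasts (lowest adjusted p = 0.638, 0.0987 and 0.38, with 19, 25 and 29 members at an unadjusted p below 0.05). Without the olfactory bulb, an alternative chosen after seeing the data, 0 of the lower calls remained in any of the 3 contrasts, and the 1 member called in each was Snord57, which rose. The median of the members over the remaining regions was still below 0, at −0.13 log2 in df/+ mice, −0.12 in dp/+ mice and −0.14 in both together. A call lost in this way does not show that a member was unchanged outside the bulb.

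The deletion and the duplication were then set against each other, the comparison between 3 copies and 1. No member differed between dp/+ and df/+ mice in limma, where 0.171% of all genes did, and 3 had an unadjusted p below 0.05, as did 11.3% of all genes. The median difference was 0.003 log2 over the members and 0.02 over all genes. Snord53, a box C/D RNA in Wdr43, had the smallest p. It measured −0.04, 0.10 and −0.16 in the dp/+ mice and −0.41 and −0.59 in the df/+ mice, a difference of 0.47 with a 95% interval of 0.24 to 0.70 (limma, adjusted p = 0.126). For Snord37 the difference was −0.29 (95% interval −0.52 to −0.07; adjusted p = 0.329) and for Snora31 −0.30 (−0.54 to −0.05; adjusted p = 0.363). For Snord35b the interval ran from −0.09 to 0.25 and for Scarna17 from −0.07 to 0.27, so differences of that size between the rearrangements cannot be told from 0 here.

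By class, 19 of 20 box H/ACA and 28 of 31 box C/D genes lay below 0 in the combined contrast, with medians of −0.28 and −0.18 log2. Of the 3 Cajal body RNAs Scarna17 fell, while Scarna8 and Scarna13 had combined differences of −0.05 and −0.01 that did not pass. The median SD between mice of 1 genotype and region was 0.27 for the members (0.11 to 0.49) and 0.13 for all genes. The technical SD between 2 arrays of 1 sample was closer, with a median of 0.10 for the members and 0.09 for all genes over 6 repeated samples.

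By region, the lower levels of the members were most marked in the olfactory bulb. The median difference of the members in df/+ mice was −0.50 log2 for the bulb, −0.39 for the brain stem, −0.11 for the cerebellum and −0.02 for the cortex. In dp/+ mice the bulb had −0.56, the cerebellum −0.20, the brain stem −0.13 and the cortex −0.09. The medians over all genes lay between −0.03 and 0.01 in all 8 comparisons. Every df/+ and dp/+ sample lay below all 3 +/+ samples for 20 members (37.0%) in the bulb, where 4.82% of all genes did. In the brain stem 7 members (13.0%) did so against a background of 1.53%. In the cerebellum 6 members (11.1%) did so, and 11.1% of all genes, and in the cortex 2 members (3.7%) against 6.16%, so neither stood apart.

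**Figure D2:**
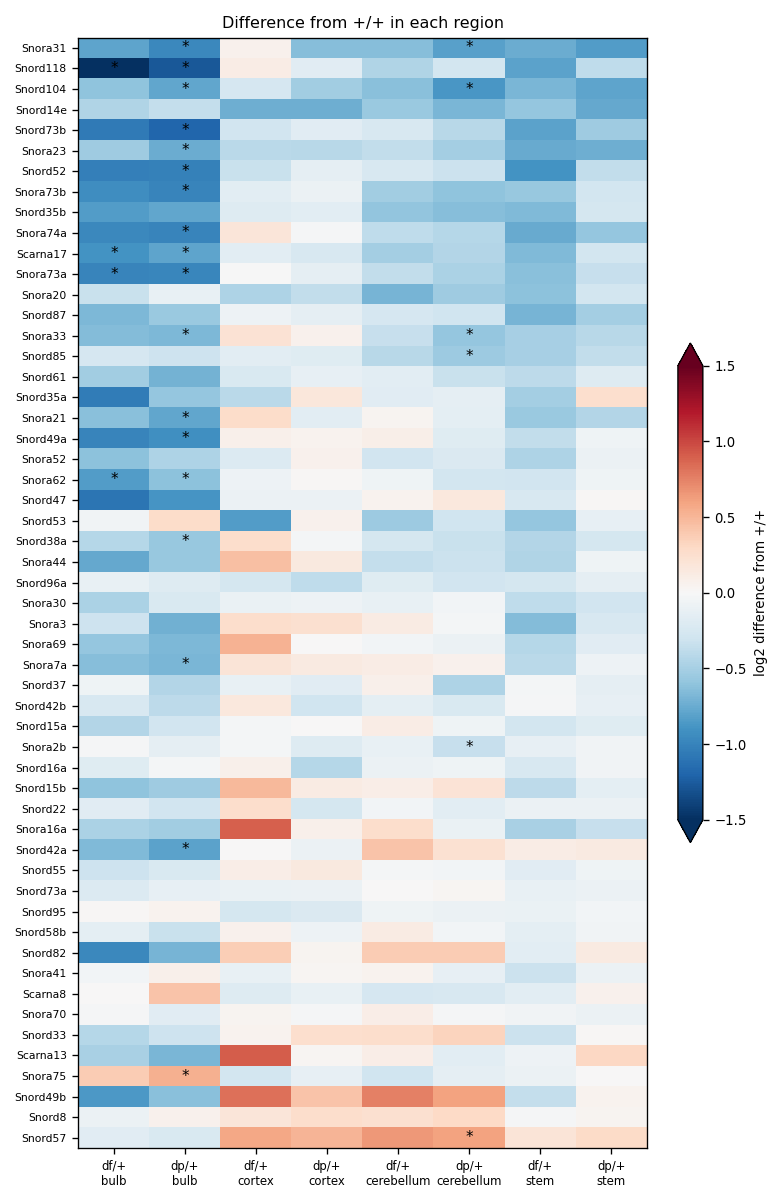
Colour gives the log2 difference from +/+ for each member (rows, ordered as by the combined difference across the brain) in df/+ and dp/+ samples of each region (columns), and an asterisk marks an adjusted p below 0.05. Blue fills the bulb columns, while the cortex columns hold as many pale and red cells as blue ones and carry no asterisk.

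In the df/+ bulb 4 members fell (limma, background 0.291% of all genes). Snord118, which is needed to process the RNA of the large ribosomal subunit and is transcribed from its own gene, had log2 signals of 7.47 and 7.07 in the df/+ bulbs, against 9.69, 9.17 and 8.11 in the +/+ bulbs. The groups did not overlap, and the level was 30.3% of +/+ (adjusted p = 0.0292). Snora73a at 50.3%, Scarna17 at 53.7% and Snora62, hosted by the ribosomal protein gene Rpsa, at 55.8% were the others. In limma 0 members passed in the df/+ cortex, cerebellum and brain stem, where 0.1%, 0.0702% and 0.211% of all genes did, and an unadjusted p below 0.05 was reached by 6 members for the cortex (6.01% of all genes), 11 for the cerebellum (8.78%) and 24 for the brain stem (4.17%).

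In the dp/+ bulb 17 members fell and 1 rose, where 2.27% of all genes changed (limma). The smallest p-values were those of Snora73a at 50.6% of +/+ (adjusted p = 0.0113), Snora73b at 50.2%, Snora7a at 62.2%, Scarna17 at 57.9% and Snora74a at 50.4%. Snord118 had 7.73, 7.75 and 7.68 in the dp/+ bulbs against the same 3 +/+ bulbs, or 41.4% (adjusted p = 0.0366). The 1 member that rose was Snora75, a box H/ACA RNA in the nucleolin gene Ncl. It had 7.63, 7.30 and 7.17 in the dp/+ bulbs, against 6.84, 6.79 and 6.86 in the +/+ bulbs (adjusted p = 0.0298). The df/+ bulbs, with 7.18 and 7.25, also lay above the +/+ bulbs, a difference that did not pass.

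The +/+ bulbs were themselves spread out. The median over the members, relative to the +/+ mean, was −0.49 and −0.49 in the df/+ bulbs and −0.54, −0.61 and −0.45 in the dp/+ bulbs, against 0.32, −0.04 and −0.28 in the +/+ bulbs. Every rearranged bulb was below every +/+ bulb, and the +/+ bulbs spanned more than the rearranged ones. The 4 calls in the df/+ bulb came to 0 when +/+ mouse 1 or 2 or either df/+ mouse was left out, to 1 for dp/+ mouse 1 or 3, and to 18 for +/+ mouse 3. The 18 in the dp/+ bulb came to 0 for +/+ mouse 1, 4 for +/+ mouse 2, 11 for dp/+ mouse 1, 2 for dp/+ mouse 2 and 5 for dp/+ mouse 3, and to 3 when the region was fitted alone.

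Some other genes moved with the members in the bulb, and others did not. Over 14 small noncoding RNAs with other symbols, such as those of RNase P, the Y particles and the minor spliceosome, the median was −0.31 and −0.33 in the df/+ bulbs and −0.52, −0.44 and −0.26 in the dp/+ bulbs, against 0.40, −0.07 and −0.21 in the +/+ bulbs. The summed signal of 4 markers of olfactory sensory neurons was 3769.3 to 5105.0 in df/+ bulbs and 4165.0 to 5006.6 in dp/+ bulbs, against 5978.0 to 8455.3 in +/+ bulbs, and 2 of the 4 were lower in every rearranged bulb. That of 3 oligodendrocyte markers was 4129.5 to 4349.9 in df/+ bulbs and 3406.0 to 4043.1 in dp/+ bulbs, against 4333.8 to 5397.7 in +/+ bulbs, and 1 of the 3 was lower in every rearranged bulb. Among all genes, 4.82% were lower in every rearranged bulb. For 4 general neuronal markers the genotypes overlapped, with 28954.4 to 29617.3 in df/+ bulbs and 25887.4 to 28363.5 in dp/+ bulbs, against 27691.7 to 30227.5 in +/+ bulbs. Summed over 3 endothelial markers, dp/+ bulbs were higher, at 2438.3 to 2950.7, than +/+ bulbs, at 2151.3 to 2239.7. The df/+ bulbs had 1702.5 to 2407.8. The sums of astrocyte and of microglia markers overlapped between genotypes. The part of these cells in the result was not tested. Without the bulb the combined median of the members across the brain was −0.14 log2.

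**Figure D3:**
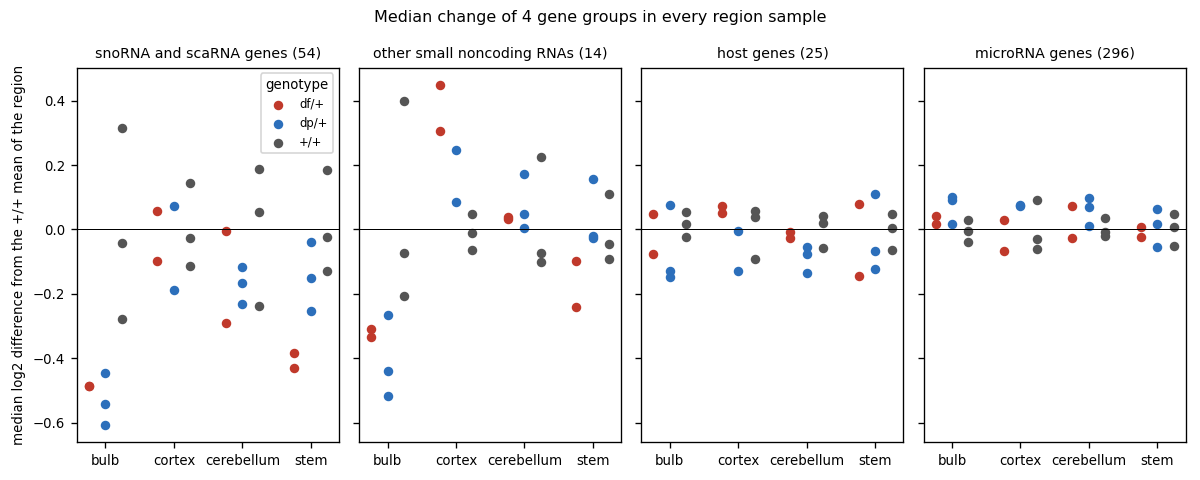
Each point is 1 region sample, at the median over a gene group of the log2 difference from the +/+ mean of its region, with df/+ in red, dp/+ in blue and +/+ in grey from left to right. The rearranged bulbs lie between −0.61 and −0.45 for the small nucleolar and Cajal body RNA genes, and microRNA genes stay between −0.07 and 0.10 in all 31 samples.

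In the dp/+ cerebellum 6 members changed, 5 lower and 1 higher, against a background of 5.54% of all genes, so 11.1% of the members stood beside a background that is itself high. Snord104 had 12.04, 11.95 and 12.24 in the dp/+ samples, against 12.48, 13.03 and 13.34 in the +/+ samples, or 54.6% (limma, adjusted p = 0.0209). Snora31, Snora33, Snord85 and Snora2b, which is hosted by Kansl2, stood at 56.9%, 66.8%, 68.7% and 78.6%. Snord57 rose to 152% of +/+ there (adjusted p = 0.0283). These 6 calls came to 0 without +/+ mouse 2 or dp/+ mouse 1, to 2 without +/+ mouse 3 or with the first array of each sample, and to 3 without dp/+ mouse 2. In limma 0 members passed in the dp/+ cortex and brain stem, where 0.0% and 0.015% of all genes did, with 6 members at an unadjusted p below 0.05 in the cortex (15.8% of all genes) and 9 in the brain stem (3.56%).

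The effect of genotype differed between regions for 1 member, Snord49b, a box C/D RNA (limma interaction F test, F = 7.59, adjusted p = 0.0386), where 0.216% of all genes passed. In the bulb it had 11.16 and 11.71 in df/+ samples and 11.70, 11.38 and 11.91 in dp/+ samples, against 12.60, 12.51 and 11.78 in +/+ samples. In the cerebellum it had 11.60 and 11.68 in df/+ samples and 11.57, 11.34 and 11.57 in dp/+ samples, against 10.54, 10.85 and 11.27 in +/+ samples. Rearranged samples were thus mostly lower in the bulb and all higher in the cerebellum. In the cortex df/+ was 0.83 and dp/+ 0.43 log2 above +/+, and in the brain stem they stood at −0.35 and 0.05. None of these single differences passed on its own. The interaction of Snord49b no longer passed when +/+ mouse 1 or 2, either df/+ mouse, or dp/+ mouse 1 or 2 was left out, nor with the first array of each sample or with no block for the mouse, and 5 members passed without +/+ mouse 3.

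In +/+ mice, 38 of 54 members (70.4%) differed between regions (limma F test with the mouse as a block), against 58.0% of all genes. The bulb was above the mean of the other regions for 23 members and below it for 1 (background 36.5% of all genes, with 15.3% above and 21.2% below). The cortex was below the others for 26 members and above for 0 (background 34.7%, with 16.9% above and 17.8% below). The cerebellum was above for 14 and below for 4 (background 39.0%, with 20.9% above and 18.1% below), and the brain stem above for 3 and below for 8 (background 30.2%, with 15.9% above and 14.3% below). In either direction, the share of members called was 44.4% for the bulb, 48.1% for the cortex, 33.3% for the cerebellum and 20.4% for the brain stem. The bulb's 24 calls came to 11 without +/+ mouse 1, the cerebellum's 18 to 11 without +/+ mouse 2, and the brain stem's 11 to 5 without +/+ mouse 3. Of all members, 33 had their highest +/+ mean in the bulb and 33 their lowest in the cortex, where 27.7% and 34.2% of all genes did. In df/+ mice 37 were highest in the cerebellum (36.6% of all genes) and 35 lowest in the brain stem (23.8%). In dp/+ mice the cerebellum was highest for 26 (33.5%) and the brain stem for 17 (22.2%), and 23 were lowest in the cortex (18.6%).

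Members with the widest regional range in +/+ mice were highest in the bulb. Snord118 spanned 1.81 log2, from 7.18 ± 0.29 in the cortex to 8.99 ± 0.80 in the bulb (SD, n = 3 each), and Snord49b spanned 1.41, with 10.88 ± 0.37 in the cerebellum and 12.3 ± 0.45 in the bulb. Snord82, in the nucleolin gene, spanned 1.21, Snord61, in the RNA-binding protein gene Rbmx, 1.18 and Snord49a 1.16. Bulb over the other regions was 254% for Snord118 (limma, adjusted p = 0.000203), 218% for Snord49b, 200% for Snord61 and 187% for Snord82. In rearranged mice the bulb mean of Snord118 was not the highest, with 7.27 ± 0.28 in df/+ bulbs (SD, n = 2) and 7.72 ± 0.04 in dp/+ bulbs (SD, n = 3), beside 7.57 ± 0.77 in df/+ cerebella and 7.75 ± 0.53 in dp/+ cerebella.

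A smaller set was highest in the cerebellum. Scarna8, a Cajal body RNA, had 7.40, 7.71 and 7.24 in +/+ cerebella and 6.09 to 6.96 in the other +/+ samples. The cerebellum was 189% of the other regions (limma, adjusted p = 1.85e-07). Snora75 had 7.62, 7.71 and 7.53 there and 6.42 to 6.95 elsewhere, or 184% (adjusted p = 6.24e-07). In both, the cerebellum did not overlap any other region, while neighbours among the other 3 regions did. Snord14e and Snord96a were also above in the cerebellum, at 151% and 132%, and Snord47 was below, at 51.4%. Below the other regions in the cortex stood Snora16a at 56.1%, Snora69 at 54.5%, Snora73a at 62.9%, Snord42b at 67.1% and Snord38a at 73.2%, and in the brain stem Snora20 at 64.8% and Snord95 at 71.2%.

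**Figure D4:**
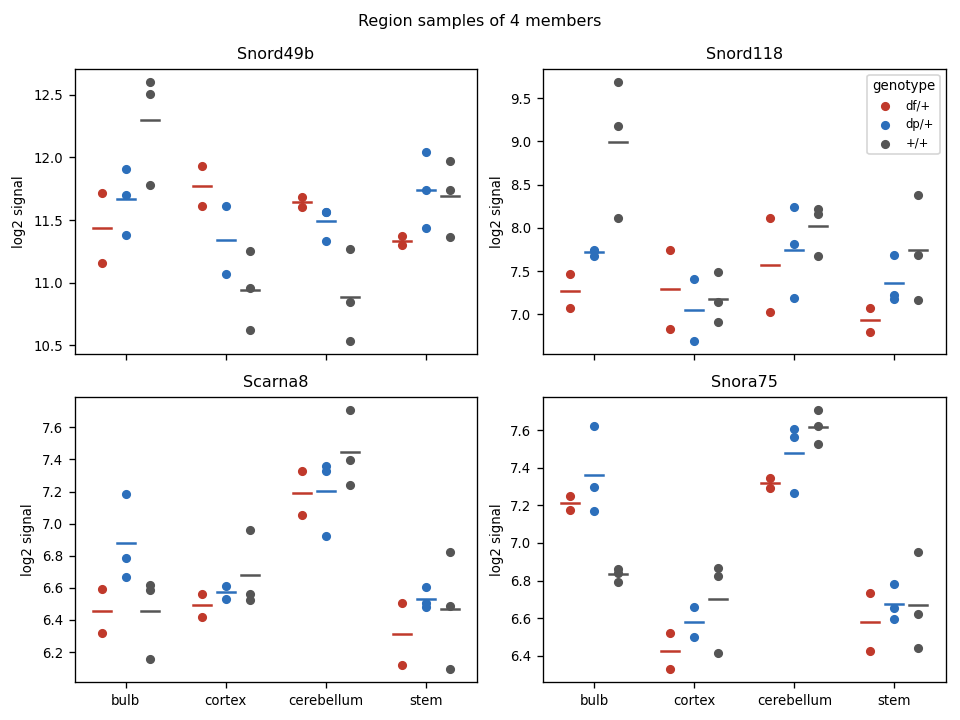
Points are the log2 signals of single region samples and short bars their means, with df/+ in red, dp/+ in blue and +/+ in grey from left to right, for 4 members. All 3 +/+ bulbs of Snord118 and 2 of 3 of Snord49b lie above every rearranged bulb, and the means of Scarna8 and Snora75 are highest in the cerebellum in all genotypes.

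Host genes had smaller differences than the small RNAs inside them. A gene whose span holds the whole small RNA was found for 53 members, and 29 members had a host with a probe set of its own, in 25 host genes. The hosts had a combined median of −0.06 log2, with single values from −0.24 to 0.10, where the same 29 members had a median of −0.18. None of the 25 hosts passed in any of the 4 contrasts across the brain in limma. In the combined one 2 had an unadjusted p below 0.05, as did 15.7% of all genes. Of the 29 members, 24 were lower than their host. Across these pairs Pearson's r was −0.28 and Spearman's rho −0.32, a description over members that share mice and, in some cases, hosts.

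The pairs of the leading members stood far apart, which follows in part from picking members by their own differences. Other pairs were close, as Snord16a and Rpl4 at −0.11 and −0.10 log2 and Snord82 and Ncl at −0.07 and −0.06. Tpt1 (translationally controlled tumour protein) was at 0.02 ± 0.05 where its Snora31 was at −0.68 ± 0.09 (log2, combined difference ± SE). Ipo7 was at −0.02 ± 0.07 where Snora23 was at −0.57 ± 0.08. The chaperone gene Hspa8 was at 0.06 ± 0.05 and Snord14e at −0.62 ± 0.16, a difference that did not pass. Nop56, itself a core protein of box C/D particles, was at −0.12 ± 0.05 where Snord57 was at 0.29 ± 0.05. Eef1b2, an elongation factor gene, had the lowest host value at −0.24 ± 0.05 (adjusted p = 0.15), and its Snora41 stood at −0.07. Snhg3, the host of Snora73a and Snora73b, was not analysed here.

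**Figure D5:**
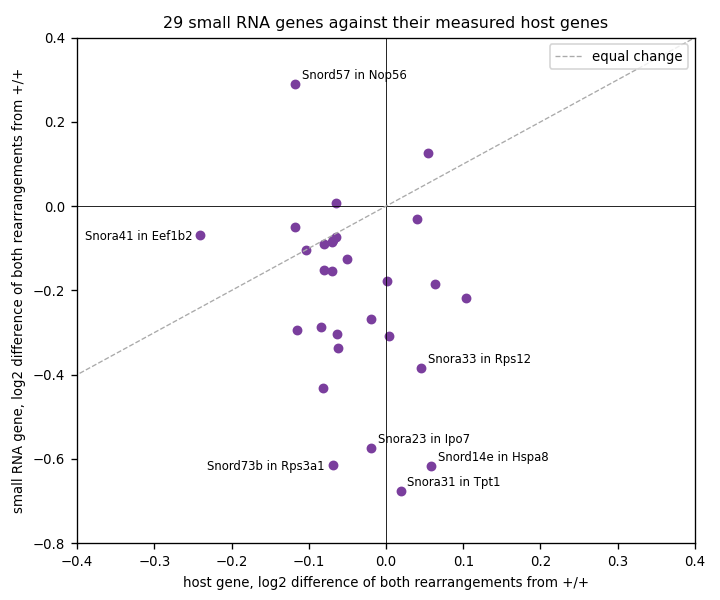
Each point is 1 small RNA gene, placed by the log2 difference of both rearrangements from +/+ of its host gene (horizontal) and of itself (vertical), and the dashed line marks equal change. Hosts lie between −0.24 and 0.10, while the small RNA genes reach down to −0.68.

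Small RNAs of the same host also differed from each other. In Rps3a1, Snord73b had a combined difference of −0.61 ± 0.11 and Snord73a one of −0.08 ± 0.05 log2 (SE). In the noncoding host 2410006H16Rik, Snord49a stood at −0.30 and Snord49b at 0.09. In Snhg12 they were Snora44 at −0.26 and Snora16a at −0.09, and in Rack1 Snord96a at −0.22 and Snord95 at −0.08. Others were close, as Snora73a and Snora73b in Snhg3 at −0.51 and −0.54, Snord15a and Snord15b in Rps3 at −0.15 and −0.09, and Snora75 and Snord82 in Ncl at 0.01 and −0.07. Differences within a host were not tested. In +/+ mice a member and its host were highest in the same region for 7 of 29 pairs. Haus6, a spindle gene, was higher in the cerebellum than elsewhere by 0.63 log2 (limma, adjusted p = 1.36e-05), as its Scarna8 was, whereas Ncl did not pass there (0.05, adjusted p = 0.647) although its Snora75 did.

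Genes for the proteins that bind, build and trim these RNAs were then counted. Calls are over the 3 contrasts with +/+ across the brain, and medians, values and unadjusted counts are for the combined one. There 15.7% of all genes had an unadjusted p below 0.05. Of the 4 box H/ACA proteins 0 passed in limma, with combined differences of −0.27 for Gar1, −0.25 for Nop10, −0.20 for Dkc1 (dyskerin) and −0.09 for Nhp2, and 3 of them had an unadjusted p below 0.05. Of 5 measured box C/D proteins 0 passed, with fibrillarin (Fbl) at −0.16 and a median of −0.12, and 2 had an unadjusted p below 0.05. Of 11 measured assembly factors 0 passed (median −0.07, 2 unadjusted), with Ruvbl1, an ATPase of the assembly complex, at −0.20. Of 13 Cajal body and cap proteins 0 passed (median −0.11, 4 unadjusted), with coilin (Coil) at −0.17 and Smn1 at −0.17.

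Of 19 measured genes of the exosome and of 3′ trimming, 1 fell, in df/+ mice, where 0.115% of all genes changed. This was Mphosph6, an exosome cofactor, with −0.43 ± 0.07 log2 in df/+ mice (SE, n = 2; adjusted p = 0.0316) and −0.19 ± 0.06 in dp/+ mice (n = 3; adjusted p = 0.101). Of 8 genes that release introns, such as the debranching enzyme Dbr1 at −0.10, 0 passed (median −0.08, 0 at an unadjusted p below 0.05). Of 9 measured genes on a list of mostly noncoding hosts 0 passed (median −0.03, 3 unadjusted), with Rian, a noncoding RNA of the imprinted Dlk1 region, at −0.30.

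Other small RNAs behaved in part differently. The 14 other noncoding RNAs have no Snord, Snora or Scarna symbol but include the box C/D RNA Rnu3a and the telomerase RNA Terc with its box H/ACA domain. Their combined median across the brain was 0.004 log2. By region their sample medians, relative to the +/+ mean, went opposite ways, with every rearranged bulb below 0. In the cortex they were 0.31 and 0.45 in df/+ and 0.09 and 0.25 in dp/+ samples, against 0.05, −0.06 and −0.01 in +/+ samples. Rmrp, the RNA of RNase MRP, fell in dp/+ mice by 0.33 ± 0.06 (SE, n = 3; limma, adjusted p = 0.0299), and Vaultrc5, a vault RNA, fell in df/+ mice by 1.28 ± 0.18 (n = 2; adjusted p = 0.0147). Over 296 microRNA genes the combined median was 0.03, and 105 of them lay below 0, against 50 of 54 members. In dp/+ mice 9 of the 296 microRNA genes rose and 1 fell, beside 1.48% of all genes higher and 0.381% lower. In df/+ mice 0 changed and 20 had an unadjusted p below 0.05, as did 6.75% of all genes. In 10 groups of genes by mean signal, the combined median of genes outside the family ran from −0.06 to 0.05, and that of the members in the same groups from −0.51 to −0.09.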

How the data were processed

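The authors deposited 1 table of log2 values, which the submitters' processing notes credit to RMA in Affymetrix Expression Console, without versions. The labels leave the log base unstated, and base 2 was read from the range of the values. Total RNA was amplified with a whole-transcript kit, per the labels' protocols. Probe sets were named from GEO's platform annotation: 21789 of 35556 have 1 symbol, 1621 several and 12146 none.

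Arrays of 1 sample were averaged. Contrasts across the brain used 1 value per mouse, and those within regions all 31 samples with 12 means and the mouse as a random block (consensus correlation 0.12). Regions in +/+ mice were compared with the mouse as a fixed block. limma 3.58.1 in R 4.3.3 was fitted to all 19938 genes, with Benjamini-Hochberg adjustment and a threshold of 0.05. The procedure was run on simulated data with independent noise per gene and shifts larger than most seen here, which is no test of the calls above. Correlations between the deviations of same-numbered mice of different genotypes ran from −0.38 to 0.17. With so few mice a genotype, these correlations cannot decide whether the numbers pair the mice. No label gives a batch.

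Hosts are genes of the RefSeq table (GRCm38.p6) whose span holds the whole small RNA. That table gives no strand, so antisense genes were not set apart.

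Named members are up to 10 called members, by p, in each contrast across the brain (3 where none passed), up to 5 in each other contrast, the 3 brightest and 3 dimmest, the 5 widest in +/+ regional range and all Scarna genes. Members named beside them share a host or were chosen after their values were seen. The members, lists and tests were chosen with earlier results of these data known. Tables and figures were made with Python 3.11.15, pandas 2.3.3 and matplotlib 3.10.9.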

Additional observations from a re-analysis of the deposited data

Results flagged for a closer look

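Snord49b is the member whose genotype effect differed between regions by the interaction test (limma F test over all 31 samples, adjusted p = 0.0386), lower in 4 of 5 rearranged bulbs than in every +/+ bulb and higher in 5 of 5 rearranged cerebella than in every +/+ cerebellum.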

How the results depend on the processing

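Over 631 alternatives for 53 named member results, 0 reversed, 181 no longer passed the threshold (in 36 results) and 1 newly passed. Calls were lost in 8 of 11 alternatives for Scarna17 and Snora62 in the df/+ bulb, 9 of 11 for Snora31 in the dp/+ cerebellum, 11 of 19 for Snora73b and Snord73b in dp/+ mice and 10 of 19 for Snora31 in both rearrangements. Counts of members called in df/+ mice, in dp/+ mice and in both rearrangements against +/+ across the brain were 2, 11 and 4. They were 0, 0 and 0 with a trended robust prior, 2, 7 and 2 with cyclic loess, 2, 5 and 4 with brighter genes only, 2, 19 and 6 with array weights (and 1 for dp/+ minus df/+), 1, 12 and 6 with all region samples and a random block for the mouse, 5, 14 and 12 without the cortex, and 1, 1 and 1 without the bulb, which was chosen after seeing the data. With the replicate number as a replicate block they were 1, 5 and 1, and whether the numbers pair the mice is not known. With brighter genes only, just 30 members were tested, and the other members could not be called. Leaving out 1 mouse gave 0 to 3, 1 to 13 and 0 to 5. In the bulb this gave 0 to 18 in df/+ and 0 to 21 in dp/+ mice, and in the dp/+ cerebellum 0 to 9, where calls elsewhere stayed at 0 to 1 in the df/+ cortex, 0 to 1 in the df/+ brain stem and 0 to 2 in the dp/+ brain stem. The dp/+ bulb gave 3 when fitted alone and the dp/+ cerebellum 2 with first arrays. The interaction gave 0 to 5 without 1 mouse, and 0 with first arrays or no block for the mouse. In +/+ mice, leaving out 1 mouse gave 11 to 32 calls for the bulb, 11 to 24 for the cerebellum and 5 to 11 for the brain stem, and regions over all 8 mice gave 14, 28 and 17. The cause of these changes was not tested. With 2 or 3 mice a genotype, small differences were not detectable.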

Other observations

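A further 41 probe sets carry a small nucleolar or Cajal body RNA symbol together with other symbols, and they entered none of the comparisons above. Of these, 24 name copies of Snord116, the imprinted box C/D cluster that is lost in Prader-Willi syndrome. All 24 lay above 0 in both kinds of rearranged mice, with medians of 0.32 log2 in df/+ mice and 0.25 in dp/+ mice relative to +/+, and 0 of 24 passed in limma over all probe sets. They read near-identical copies and are not independent. Among the other 17 shared probe sets, 13 lay below 0 in the combined contrast, with a median of −0.14, and 0 passed. The lowest were the 2 that name Snord14c, Snord14d and their host Hspa8, with −0.39 each.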
